A study of Homo sapiens with 80 samples.

Results

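The factors described here are 10 genes that govern T-cell development and recur in T-cell acute lymphoblastic leukemia (T-ALL): TAL1, GATA3, RUNX1, MYB, TCF7, LEF1, BCL11B, TCF12, NOTCH1 and MYC. They were chosen by symbol, and their Ensembl identifiers each matched 1 record of the deposited table, so they are 10 of 60663 genes. RNA came from Jurkat T cells, an established line from a human T-cell leukemia, and was sequenced after depletion of ribosomal RNA. In the first experiment the cells spun at 9 g in a pipette centrifuge for 20 or 75 s (hypg20s and hypg75s) or for 3, 5, 7, 9, 15 or 60 min (hypg3, hypg5, hypg7, hypg9, hypg15 and hypg60). The controls of that experiment stayed in the pipette at normal gravity, for 15 min (Ctrl) or for 60 min (Ctrl60), and the deposited library names of Ctrl60 alone mention HEPES, a buffer. Groups spun for up to 15 min spent 15 min in the pipette in all, at normal gravity until the spin. In hypg60 that time was 60 min. In the second experiment the cells were spun for 5 min at 300 g and lysed 1 min (wait1min), 4 min (wait4min) or 15 min (wait15min) later. The deposited library names call the first waiting time instant and the second 1 min, and the sample titles were followed. Its other groups were heated to 42 °C (heat) or lysed with neither spin nor heat (Ctrl300g). The second experiment used another vessel and another cell concentration than the first, and all groups of both are the same untransfected line. The groups held 6 libraries each at 9 g, except hypg15 with the 5 that were used, and 4 each in the second experiment.

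These genes form the core of the regulatory program of an immature T cell. NOTCH1 is a surface receptor whose cleaved intracellular part enters the nucleus, binds RBPJ and turns on target genes, MYC among them. TAL1 is a basic helix-loop-helix factor that is normally silent in developing T cells and is switched on in a subset of T-ALL, where it binds DNA together with an E protein such as TCF12 and sits at shared sites with GATA3, RUNX1 and MYB. TCF7 and LEF1 are the DNA-binding factors of the Wnt pathway in T cells, and BCL11B is needed for T-lineage commitment.

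Libraries had 22634465 to 41893490 assigned read pairs at 9 g and 24417717 to 41220541 in the second experiment. Library 75 of hypg15, with 17205655, was left out because it held 0 counts on chromosomes 4 to 9, X, Y and MT, where MYB, TCF7, LEF1, NOTCH1 and MYC lie. Of 10 T-cell markers, 10 had a median of at least 10 CPM (counts per 1e6 assigned read pairs), and their summed level ran from 2030.62 to 4699.85 CPM. Of the B-cell markers MS4A1 had a median of 0 CPM, while CD79A reached a median of 61.4 CPM. The 3 other lists (myeloid, erythroid, epithelial and fibroblast) summed to at most 14.1, 13.5 and 9.96 CPM, with CEBPA of the myeloid list at a median of 10.6 CPM. The libraries of hypg3 and hypg15 are numbered from 69 to 80 while the remaining groups at 9 g carry 1 to 48, and the number range therefore goes together with time at hypg3 and hypg15, which cannot be told apart. Nothing in the labels says that the libraries of a group came from separate cultures, so p-values measure the spread between libraries. In bulk RNA, fewer cells with a transcript and less of it per cell cannot be told apart.

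On GRCh38 the deposited records place TAL1 (ENSG00000162367) at chr1:47216290-47232220 on the minus strand, NOTCH1 (ENSG00000148400) at chr9:136494433-136546048 on the minus strand and TCF12 (ENSG00000140262) at chr15:56918623-57299281 on the plus strand. These 3 genes had at least 4 calls at 9 g and a RefSeq start at most 115 bases from the deposited 5′ end, so the 250 bases before that start are printed. The RefSeq starts listed were 1 for NOTCH1, 2 for TAL1 and 5 for TCF12, and the nearest to the deposited 5′ end was taken. For TCF12 it lies 21 bases inside the deposited record. Which start is used in these cells was not measured. The sequences are those of RefSeq for GRCh38.p14, written 5′ to 3′ on the strand of the gene, at chr9:136546049-136546298 for NOTCH1, chr1:47232336-47232585 for TAL1 and chr15:56918394-56918643 for TCF12. Capitals mark a match to any of 7 short motifs searched on both strands.
NOTCH1: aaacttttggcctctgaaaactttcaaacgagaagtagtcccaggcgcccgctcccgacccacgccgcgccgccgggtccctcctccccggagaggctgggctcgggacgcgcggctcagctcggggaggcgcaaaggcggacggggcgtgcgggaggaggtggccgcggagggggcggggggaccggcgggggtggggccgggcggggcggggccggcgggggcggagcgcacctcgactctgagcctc
TAL1: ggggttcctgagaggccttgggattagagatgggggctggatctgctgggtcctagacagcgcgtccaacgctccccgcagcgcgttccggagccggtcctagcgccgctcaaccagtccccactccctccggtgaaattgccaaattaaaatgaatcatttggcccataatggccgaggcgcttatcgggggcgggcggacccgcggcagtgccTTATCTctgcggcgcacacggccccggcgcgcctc
TCF12: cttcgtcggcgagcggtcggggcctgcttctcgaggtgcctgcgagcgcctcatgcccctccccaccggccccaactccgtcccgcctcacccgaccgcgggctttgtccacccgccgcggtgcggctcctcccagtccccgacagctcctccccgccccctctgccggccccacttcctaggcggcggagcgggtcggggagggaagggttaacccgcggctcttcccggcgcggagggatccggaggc
The NOTCH1 window has a GC content of 76%, the TCF12 window 75.2% and the TAL1 window 64.8%, against a median of 58% over 35116 promoters of that length. The motifs were CAGNTG for TAL1 with an E protein, AGATAA for GATA factors, TGTGGT for RUNX, AACNG for MYB, CTTTGA for TCF/LEF, CACGTG for MYC and TGGGAA for RBPJ. They occurred in 42.5%, 9.17%, 11%, 70.6%, 11.2%, 6.35% and 20.9% of all promoters, in that order. The TAL1 window held 1 match, a GATA motif on the opposite strand that starts 35 bases before the start, and the NOTCH1 and TCF12 windows held none of the 7. RefSeq windows matched 9 of the 10 genes by symbol.

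Without centrifugation all 10 genes were well expressed. Per kilobase of exon in Ctrl, LEF1 stood highest at 128 ± 2.04 CPM per kb (SD, n = 6), followed by MYC at 95.3 ± 4.17 and TCF7 at 67.1 ± 3.5. MYB (52.1 ± 2.06) and TAL1 (46.9 ± 1.33) came next, and their libraries overlapped. RUNX1 (31.3 ± 2.62) overlapped with BCL11B (26.7 ± 1.95), and NOTCH1 (22.5 ± 0.42) with TCF12 (18.9 ± 1.79), while GATA3 was lowest at 13.9 ± 0.525 CPM per kb. All 10 stood above 76.2% of the 13547 genes that averaged 1 CPM or more. In Ctrl300g the order was the same down to NOTCH1, and GATA3 (19.9 ± 0.7, n = 4) lay above TCF12 (13.2 ± 0.752) with no overlap. Ctrl60 and Ctrl were tested against each other, and 0 of the 10 were called by edgeR's quasi-likelihood test or by DESeq2, against 0.0124% of 16109 genes by edgeR, of which 578 had an unadjusted p under 0.05. Of the 10, MYC alone had one (0.0056), with a log2 difference of -0.10 ± 0.03.

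**Figure D1:**
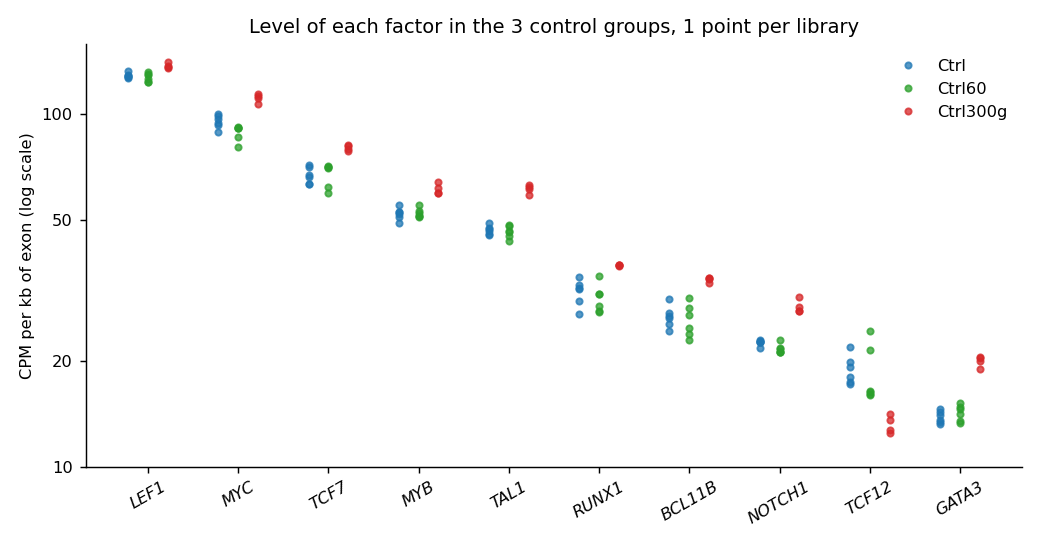
Level of each factor per kilobase of exon in the 3 control groups, as CPM per kb on a log scale, with 1 point per library. LEF1 lies highest in each control, and TCF12 is the factor that stands lower in Ctrl300g than in Ctrl.

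At 9 g most calls among these genes fell at the first 3 times and at 15 min. A gene was called at a Benjamini-Hochberg adjusted p under 0.05 in edgeR's quasi-likelihood test, over all genes tested and against its own control. At hypg20s 4 of the 10 were called, 3 higher and 1 lower, where 15.2% of all genes were (6.66% higher, 8.58% lower). With 1 library left out, 7.7% (without library 14) to 26.1% (without library 16) of all genes were called there, and 4 of the 10 each time. At hypg75s 5 were called, 4 higher and 1 lower, against 31.3% of all genes (16.8% and 14.4%). At hypg3 it was 7, 3 higher and 4 lower, against 41.3% (16.9% and 24.4%). The number then dropped to 1 at hypg5, higher, against 6.02% (4.33% higher). At hypg7 1 was higher and 1 lower, against 12.8% (6.64% and 6.19%), and at hypg9 2 were higher and 1 lower, against 19.6% (11.3% and 8.34%). At hypg15 2 were higher and 5 lower, against 53.4% (25.4% and 27.9%), and at hypg60 against Ctrl60 1 was higher, against 30.1% (17.1% higher). The share of the 10 was below that of all genes at hypg60 and above it at the other 7 times, by small numbers of genes. In the scaling of each fit, libraries of both groups did not overlap for 6 of the 10 at hypg15 (33% of all genes) and for 5 at hypg3 (21.1%). The first times had 3 such genes each (5.94% at hypg20s and 15.7% at hypg75s), the times hypg7 and hypg9 2 each (6.05% and 9.69%), and hypg5 and hypg60 1 each (5.1% and 13.4%). The median absolute log2 fold change of the 10 was 0.20 at hypg3 and 0.16 at hypg15, beside 0.19 and 0.26 over all genes. The comparisons from hypg20s to hypg15 share the 6 Ctrl libraries. Log2 fold changes correlated with the GC content of the transcripts across genes at every time, from a Spearman rho of 0.101 at hypg7 to 0.675 at hypg3. After a correction for GC content the calls among the 10 were 1 higher and 3 lower at hypg20s, 2 and 2 at hypg75s, 1 and 4 at hypg3, 1 and 2 at hypg5, hypg7 and hypg60, 2 and 2 at hypg9, and 0 and 6 at hypg15. The calls over all genes moved too, at hypg20s from 1074 higher and 1384 lower to 648 and 1624, at hypg75s from 2738 and 2348 to 1503 and 2686, at hypg3 from 2740 and 3945 to 990 and 4382, at hypg5 from 705 and 276 to 826 and 1652, and at hypg15 from 4040 and 4437 to 2062 and 4697. At hypg7 1091 genes were higher and 1017 lower, which became 1410 and 2127 with the correction and 1720 and 836 with total counts alone. At hypg9 the counts were 1849 and 1366, then 1991 and 2576, and 2531 and 908 with total counts alone. At hypg60 they were 2791 and 2125, then 2836 and 3910, and 3364 and 1471 with total counts alone.

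**Figure D2:**
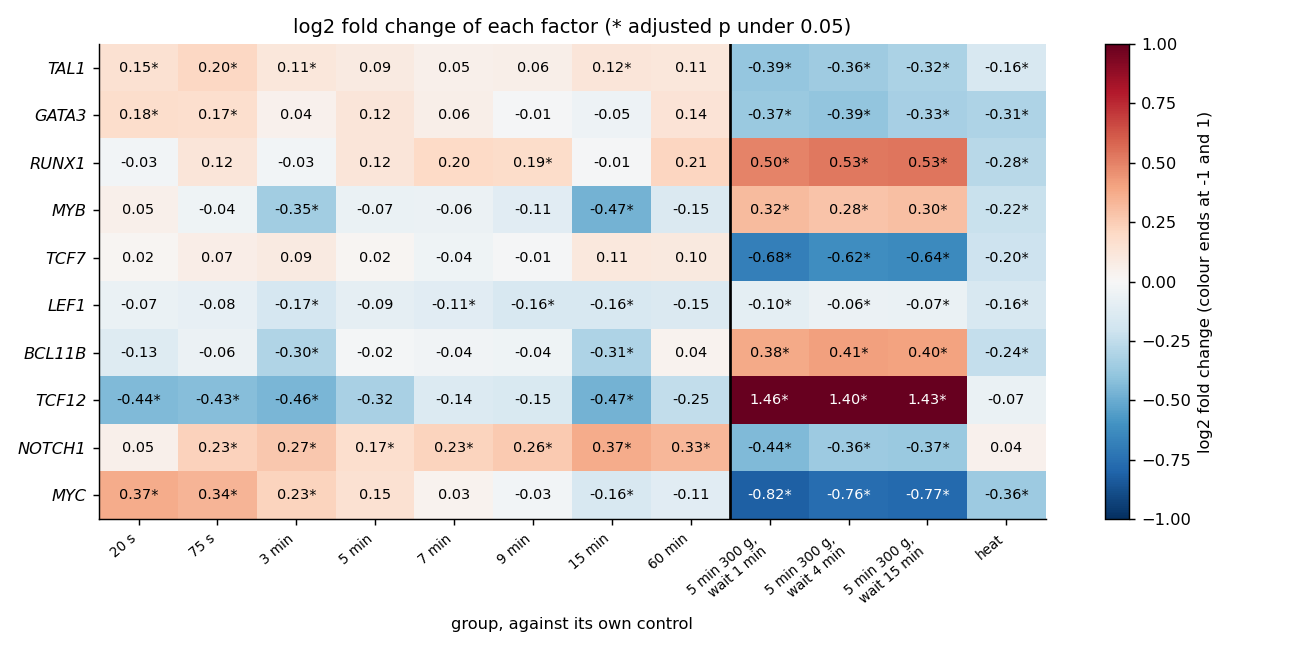
Log2 fold change of each factor in the 12 comparisons with its own control, with * for an adjusted p under 0.05. MYC passes from 0.37 at 20 s to -0.16 at 15 min, NOTCH1 is higher at 7 of 8 times, and with 300 g TCF12 reaches 1.46, while the negative values of TAL1, GATA3, LEF1 and NOTCH1 at 300 g turn positive under a GC correction.

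MYC, the factor that drives growth and ribosome production, rose within 20 s and was below its starting level at 15 min. In Ctrl its lowest, median and highest libraries were at 407, 438 and 458 CPM, normalized over all 79 libraries. At hypg20s they were at 555, 565 and 578 CPM. All hypg20s libraries lay above all controls and had the smallest spread of any group at 9 g, with a coefficient of variation of 1.72%. The log2 fold change was 0.37 ± 0.03 (SE, adjusted p = 1.8e-06, edgeR), higher than that of 97.8% of all genes tested. It was 0.34 ± 0.03 at hypg75s (510, 551 and 577 CPM) and 0.23 ± 0.03 at hypg3 (474, 516 and 550 CPM), both called and without overlap with Ctrl. At hypg5 the value was 0.15 ± 0.04 (adjusted p = 0.057, edgeR), at hypg7 0.03 ± 0.04 and at hypg9 -0.03 ± 0.03, none of them called. At hypg15 the libraries stood at 389, 362, 390, 376 and 368 CPM, all below Ctrl, and MYC was called lower by -0.16 ± 0.04 (adjusted p = 0.004, edgeR).

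MYC was also compared between times within the same range of library numbers. From hypg75s to hypg9 MYC fell by 0.37 on the log2 scale (SE 0.03, adjusted p = 9.6e-05, edgeR), with no overlap. In that comparison 3 of the 10 genes were called, all lower, against 5% of all genes, or 3.24% counting lower calls alone, and with no filter TCF12 was called higher (0.28). From hypg3 to hypg15 it fell by 0.42 (SE 0.04, adjusted p = 5.1e-04), and it was the only 1 of the 10 called there, against 2.54% of all genes (0.842% lower). The groups hypg9 and hypg60 differ in time in the pipette (15 and 60 min), as Ctrl and Ctrl60 do, which cannot be told apart from time at 9 g in this comparison. From Ctrl to Ctrl60 MYC stood at -0.10 ± 0.03 (adjusted p = 0.91, edgeR). From hypg9 to hypg60 MYC was lower by -0.18 ± 0.05 (adjusted p = 0.042), again as the only 1 called, against 5.07% of all genes (0.955% lower), and with no filter on low counts that p was 0.081. GATA3 was called higher there with RLE factors, DESeq2 and 1 model (0.20 at each). Against Ctrl60 the 60 min value was -0.11 ± 0.05 (adjusted p = 0.085), with libraries from 352 to 401 CPM (median 361) beside 370 to 421 (median 418). After GC correction MYC was called higher at hypg20s (0.28), hypg75s (0.25), hypg3 (0.08) and hypg5 (0.10), and lower at hypg15 (-0.36) and hypg60 (-0.21). With all groups in 1 model MYC was called at hypg5 (0.15) and hypg60 (-0.12) as well, without library 47 at hypg60 (-0.14), and with total counts alone at hypg5 (0.18) and hypg7 (0.08).

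NOTCH1, the receptor of the set, was called at 7 of 8 times at 9 g, and at 3 with the GC correction. In Ctrl it was at 272, 283 and 286 CPM (lowest, median, highest), and at hypg20s at 273, 297 and 300 CPM. The difference of 0.05 ± 0.03 at hypg20s was not called (adjusted p = 0.27, edgeR). From hypg75s on, NOTCH1 was higher than its control at each of 7 times, with log2 fold changes of 0.23 (hypg75s), 0.27 (hypg3), 0.17 (hypg5), 0.23 (hypg7), 0.26 (hypg9), 0.37 (hypg15) and 0.33 (hypg60). At hypg15 the 5 libraries read 333, 382, 312, 327 and 404 CPM. At hypg60 they ran from 312 to 371 (median 331) beside 265 to 287 (median 268) in Ctrl60. At all 7 times no library overlapped with the control, and at hypg5 and hypg60 NOTCH1 was the only 1 of the 10 that was called. NOTCH1 has a transcript GC content of 62.9%, above that of 92.7% of the genes tested. After this correction it was called at hypg7 (0.20), hypg9 (0.19) and hypg60 (0.21), and not at hypg75s (0.08), hypg3 (0.03), hypg5 (0.08) or hypg15 (0.04).

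TAL1, the oncogenic factor of the complex, rose slightly in the first minutes. It went from 259, 267 and 280 CPM in Ctrl to 287, 297 and 306 at hypg20s and 292, 298 and 311 at hypg75s, with no overlap. Its log2 fold changes there were 0.15 ± 0.03 (adjusted p = 0.0033) and 0.20 ± 0.03 (adjusted p = 7.6e-05), and it was called at hypg3 (0.11) and hypg15 (0.12) as well. The call at hypg15 was lost without library 77, 79 or 80, with total counts alone (adjusted p = 0.10) and with no filter (0.23), and that at hypg3 with no filter (0.12). Total counts alone added TAL1 calls at hypg5 (0.11), hypg7 (0.10), hypg9 (0.10) and hypg60 (0.15), 1 model and leaving out library 9, 10, 12, 44 or 45 added that at hypg60 (0.11, and 0.13 to 0.15), and with the GC correction TAL1 was called at hypg75s alone (0.11), while the values at hypg3 (-0.03) and hypg15 (-0.06) changed sign and were not called. From hypg75s to hypg9 TAL1 was lower by -0.14 ± 0.03 (adjusted p = 0.018, edgeR), a call that was lost with the GC correction (-0.09, adjusted p = 0.079).

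GATA3, the master regulator of T helper 2 cells, was higher in the first 75 s, as TAL1 was. Libraries of Ctrl were at 45, 46.8 and 49.5 CPM and those of hypg20s at 51.4, 53.7 and 54.2 CPM. They did not overlap, and the log2 fold change was 0.18 ± 0.04 (adjusted p = 0.0061, edgeR). At hypg75s it was 0.17 ± 0.04 (adjusted p = 0.0091), and from hypg75s to hypg9 it was lower by -0.18 ± 0.05 (adjusted p = 0.035). The latter call was lost with total counts alone (adjusted p = 0.087), no filter (0.056) and the GC correction (0.18). GATA3 was not called at the other 6 times, although at hypg60 it was called higher with all groups in 1 model (0.13, adjusted p = 0.012, edgeR) and without library 9 (0.16), 12 (0.18) or 48 (0.17), and with the GC correction it was called at neither early time (0.08 and 0.07) but lower at hypg15 (-0.25).

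TCF12, the E-protein partner of TAL1, was lower at the early times and at 15 min, with wide scatter. Ctrl libraries were at 162, 175 and 207 CPM, and hypg20s libraries at 107, 130 and 166 CPM. The 2 groups overlapped in the highest hypg20s library only slightly, and the log2 fold change was -0.44 ± 0.10 (adjusted p = 0.011, edgeR). It was -0.43 at hypg75s, -0.46 at hypg3 and -0.47 at hypg15, all called. At hypg15 the libraries read 118, 142, 143, 118 and 102 CPM, all below those of Ctrl. The values at hypg5 (-0.32), hypg7 (-0.14), hypg9 (-0.15) and hypg60 (-0.25) were not called. TCF12 has the lowest transcript GC content of the 10, at 40.8%, and with the GC correction its value was -0.30 at hypg20s, -0.27 at hypg75s and -0.13 at hypg15, still called, and -0.20 at hypg3, not called. The correction added calls at hypg5 (-0.25) and hypg7 (-0.12).

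In Ctrl60, libraries 9 and 10 stood at 228 and 203 CPM of TCF12 and the other 4 between 151 and 155 CPM. In hypg60, library 44 stood at 224 CPM and the other 5 between 120 and 141. The same library 44 had the highest RUNX1 (699), MYB (345), LEF1 (673) and BCL11B (321 CPM) of hypg60 and the lowest TCF7 (630), NOTCH1 (312) and MYC (352). Without library 44, 6 of the 10 genes were called at 60 min in place of 1, TCF12 at -0.41 and MYB at -0.24 among them, an alternative chosen after seeing the data. Without that library 43.4% of all genes were called, in place of 30.1%. A difference in HEPES between Ctrl60 and hypg60 cannot be told apart from 60 min at 9 g.

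MYB, a factor that keeps progenitors proliferating, was lower at 3 min and 15 min. Against 270, 288 and 304 CPM in Ctrl, it was at 187, 226 and 253 CPM at hypg3. At hypg15 the libraries read 204, 202, 217, 216 and 161 CPM. Neither group overlapped with Ctrl, and the log2 fold changes were -0.35 ± 0.06 (adjusted p = 2.5e-04) and -0.47 ± 0.07 (adjusted p = 4.4e-05). BCL11B followed the same times, from 207, 226 and 256 CPM in Ctrl to 172, 180 and 207 at hypg3 (-0.30 ± 0.06, adjusted p = 0.0013, edgeR), where the highest library touched the lowest control. At hypg15 BCL11B read 173, 189, 181, 167 and 175 CPM, all below Ctrl (-0.31 ± 0.06, adjusted p = 3.1e-04). With the GC correction these 4 calls held, MYB at -0.21 and -0.31 and BCL11B at -0.36 and -0.40. Neither gene was called at the other times at 9 g, except MYB at hypg9 (-0.09) with the GC correction and at hypg60 (-0.24) without library 44. Both times are those of the second range of library numbers, and between hypg3 and hypg15 neither gene was called (MYB -0.15 ± 0.08, BCL11B -0.04 ± 0.05).

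LEF1, a DNA-binding factor of the Wnt pathway, was lower at 4 times at 9 g. LEF1 went from 676, 686 and 709 CPM in Ctrl to 594, 619 and 629 at hypg3, with no overlap (-0.17 ± 0.03, adjusted p = 5.0e-04, edgeR). It was called lower at hypg7 (-0.11), hypg9 (-0.16) and hypg15 (-0.16) too, and its values at the other times ran from -0.07 at hypg20s to -0.15 at hypg60. The call at hypg7 was lost with total counts alone (-0.07, adjusted p = 0.084), no filter (0.14) and 1 model (0.056). LEF1 was called lower at hypg75s with RLE factors and DESeq2 (-0.09 at each), and at hypg60 with DESeq2 (-0.16), 1 model (-0.15) and without library 44 (-0.17). LEF1 was called lower at all 8 times after GC correction, from -0.12 at hypg7 to -0.32 at hypg15. TCF7, its partner in that pathway, was called at 0 of 8 times at 9 g, with log2 fold changes from -0.04 to 0.11, although RLE factors, total counts and DESeq2 each called it higher at hypg3 (0.11) and the GC correction called it lower there and at hypg20s (-0.08 at each). TCF7 was also called higher at hypg60 with total counts alone (0.14) and without library 44 (0.14), and at hypg15 without library 80 (0.13). Its unadjusted p was under 0.05 at hypg3 and at hypg15 (0.044 and 0.048). RUNX1, a core-binding factor of blood cells, was called once, at hypg9 (504, 549 and 576 CPM beside 422, 498 and 539 in Ctrl, log2 fold change 0.19 ± 0.06, adjusted p = 0.031). That call was lost when all groups entered one model (adjusted p = 0.16), and the RUNX1 libraries of both groups overlapped. With no filter on low counts RUNX1 was called at hypg7 as well (0.20, adjusted p = 0.048, edgeR).

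**Figure D3:**
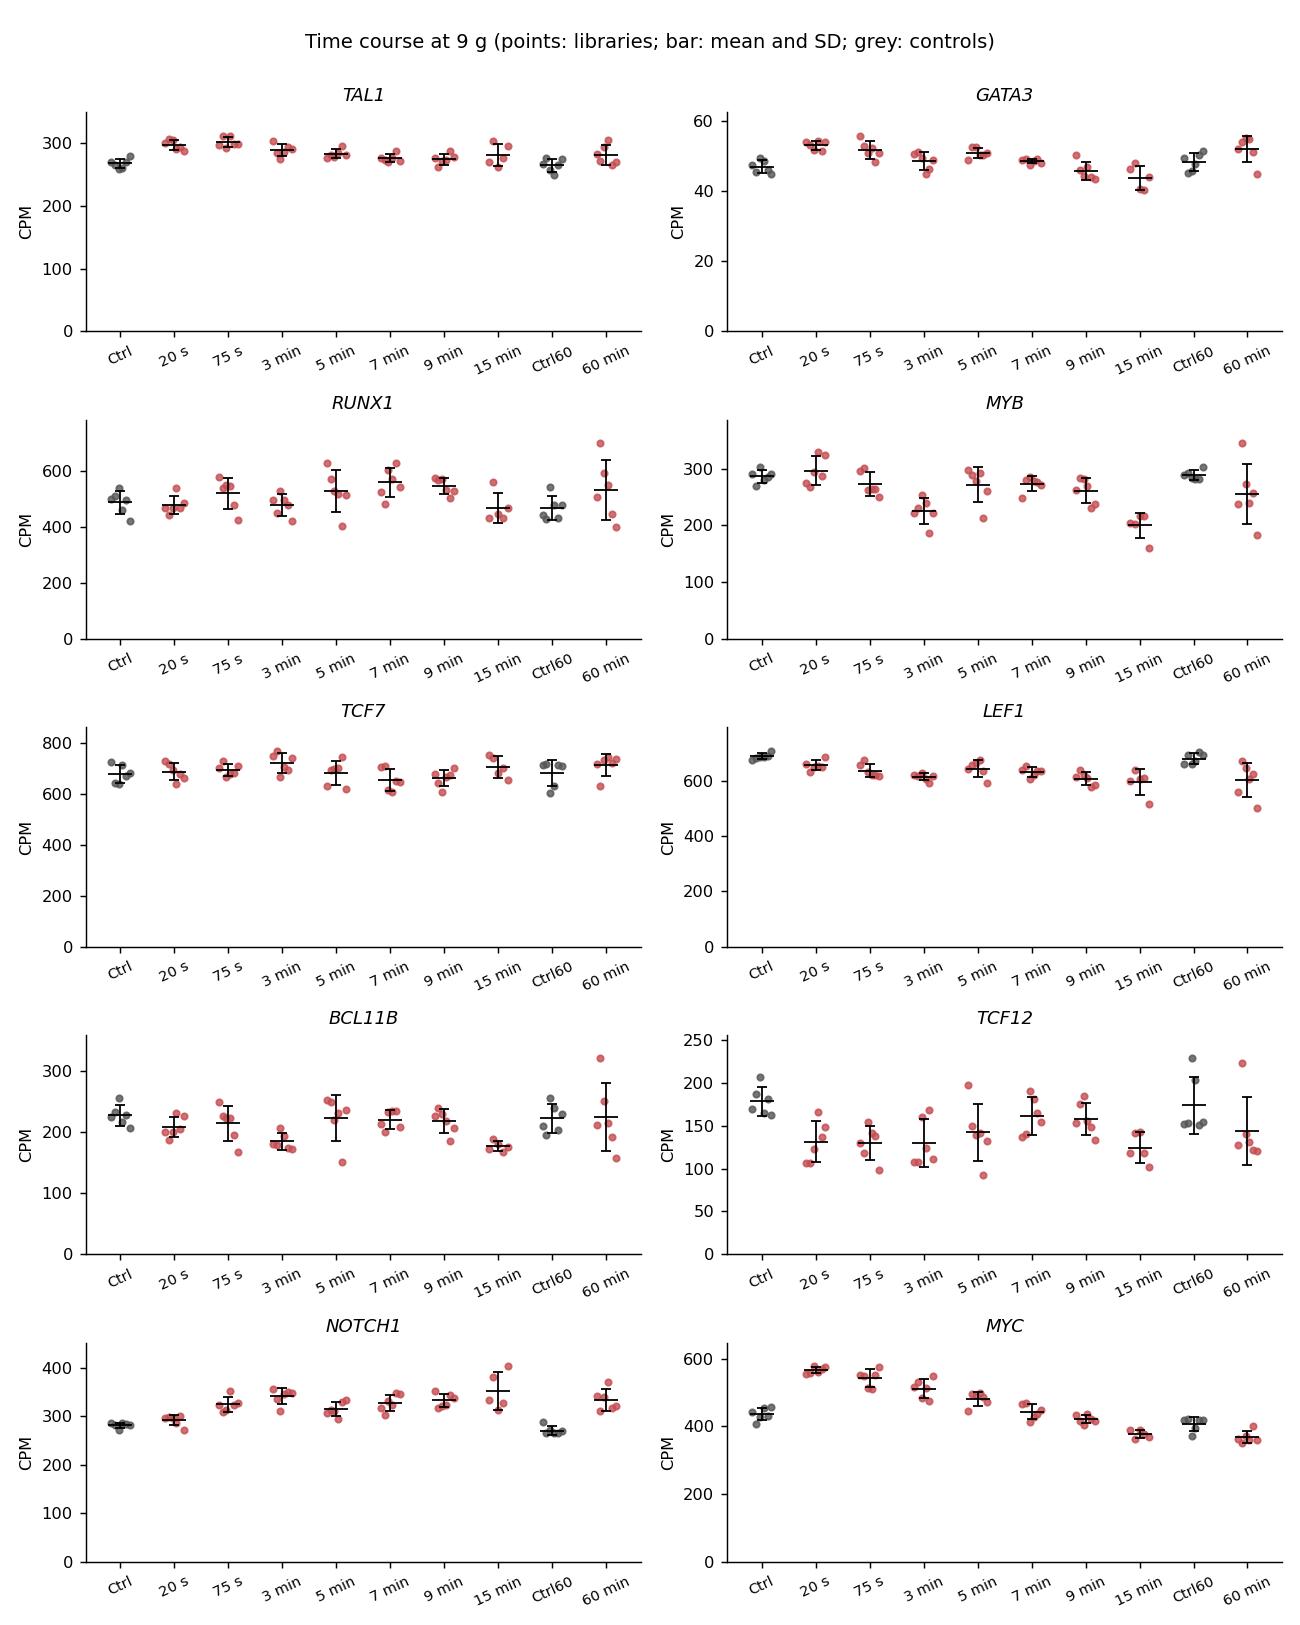
Levels in CPM by library at 9 g, 1 panel per factor, with the mean and SD of each group and controls in grey. MYC lies at 555 to 578 CPM after 20 s, at 362 to 390 after 15 min and at 352 to 401 after 60 min, and library 44 stands alone at 60 min in TCF12 (224 CPM).

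After 5 min at 300 g all 10 genes were called at each waiting time, in a comparison in which most of the transcriptome was: 81.5% of the genes at wait1min, 82.2% at wait4min and 82.3% at wait15min. Of the 10, 4 were higher (TCF12, RUNX1, BCL11B, MYB) and 6 lower (MYC, TCF7, NOTCH1, TAL1, GATA3, LEF1), where 41.4% to 41.8% of all genes were higher and 40.1% to 40.6% lower (41.7% and 40.6% at wait4min, 41.8% and 40.5% at wait15min). No library of any of them overlapped with Ctrl300g, as for 76.8%, 77.3% and 77.4% of all genes at the 3 times. The median absolute log2 fold change of the 10 was 0.42 at wait1min, beside 0.68 over all genes. The 3 comparisons share the 4 Ctrl300g libraries. At wait1min 7104 genes were higher and 6882 lower, and with total counts alone 8527 and 5218, with the median of all genes at 0.25. Log2 fold changes went down with GC content across genes, with a Spearman rho of -0.686 at wait1min, opposite in sign to 9 g. After GC correction 7 of the 10 were higher and 2 lower at wait1min, 8 and 2 at wait4min and 8 and 1 at wait15min, beside 7625 and 4730 of 17155 genes, 7864 and 4927 of 17175, and 7766 and 4907 of 17148.

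TCF12 had the largest log2 fold change of the 10, although with the GC correction RUNX1 and BCL11B stood above it. The Ctrl300g libraries read 133, 118, 128 and 120 CPM and those of wait1min 306, 330, 322 and 314 CPM. Every centrifuged library was above every control, and the fitted fold between the groups was 2.75 (log2 1.46 ± 0.04, adjusted p = 4.4e-15, edgeR). The values were 1.40 at wait4min and 1.43 at wait15min, and with the GC correction 0.63, 0.61 and 0.63, still called. At 9 g TCF12 was called lower at 4 times. RUNX1 read 582, 583, 582 and 579 CPM in Ctrl300g and 770, 749, 758 and 767 CPM at wait1min, a log2 fold change of 0.50 ± 0.03 (adjusted p = 1.1e-10). BCL11B rose from 283, 292, 290 and 292 CPM to 353, 349, 340 and 351 CPM (0.38 ± 0.03, adjusted p = 5.5e-09). Both were larger with the GC correction, at 0.66 for RUNX1 and 0.73 for BCL11B. MYB rose by 0.32 ± 0.04, and with the GC correction its value was 0.07 (adjusted p = 0.079) at wait1min, 0.06 at wait4min and 0.07 at wait15min, the latter 2 called.

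MYC had the most negative log2 fold change of the 10 at 300 g, with or without the GC correction. Its libraries read 489, 515, 523 and 508 CPM in Ctrl300g and 261, 275, 255 and 279 CPM at wait1min. The groups were far apart, and the log2 fold change was -0.82 ± 0.04 (adjusted p = 8.8e-13, edgeR), a level of 0.567 of the control. It was -0.76 at wait4min and -0.77 at wait15min, and with the GC correction -0.25, -0.22 and -0.23, still called. TCF7 went from 792, 803, 823 and 819 CPM to 473, 463, 452 and 484 CPM (-0.68 ± 0.03, adjusted p = 2.9e-12). After GC correction TCF7 was at -0.08 (called), -0.05 (called) and -0.06 (adjusted p = 0.071) at the 3 waiting times.

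NOTCH1, TAL1, GATA3 and LEF1 were lower at 300 g without a GC correction and higher with it. At wait1min NOTCH1 stood at -0.44 ± 0.04, TAL1 at -0.39 ± 0.04 and GATA3 at -0.37 ± 0.04, and with the GC correction these became 0.30, 0.15 and 0.19, each called in the opposite direction. LEF1 was at -0.10 ± 0.03 (724, 730, 750 and 735 CPM in Ctrl300g, 634, 646, 614 and 653 CPM at wait1min), and it turned to 0.15 with total counts alone and to 0.39 with the GC correction. The other 9 genes kept their direction with total counts alone, with the GATA3 call at wait15min lost (-0.07, adjusted p = 0.099, edgeR). For these 4 genes the sign at 300 g thus differed between scalings.

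Between the waiting times the differences were small. From wait1min to wait15min 0 of the 10 were called by edgeR or by DESeq2, against 0.149% of 17446 genes by edgeR, of which 2192 had an unadjusted p under 0.05. The log2 differences of the 10 lay between -0.02 and 0.08, and TAL1 (0.037) and NOTCH1 (0.026) had an unadjusted p under 0.05. In 4 of the 10 the libraries did not overlap, all higher at wait15min, against 7.25% of all genes. MYC read 285, 282, 277 and 262 CPM at wait15min, a range that overlapped with that of wait1min and lay far from the lowest control at 489 CPM.

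**Figure D4:**
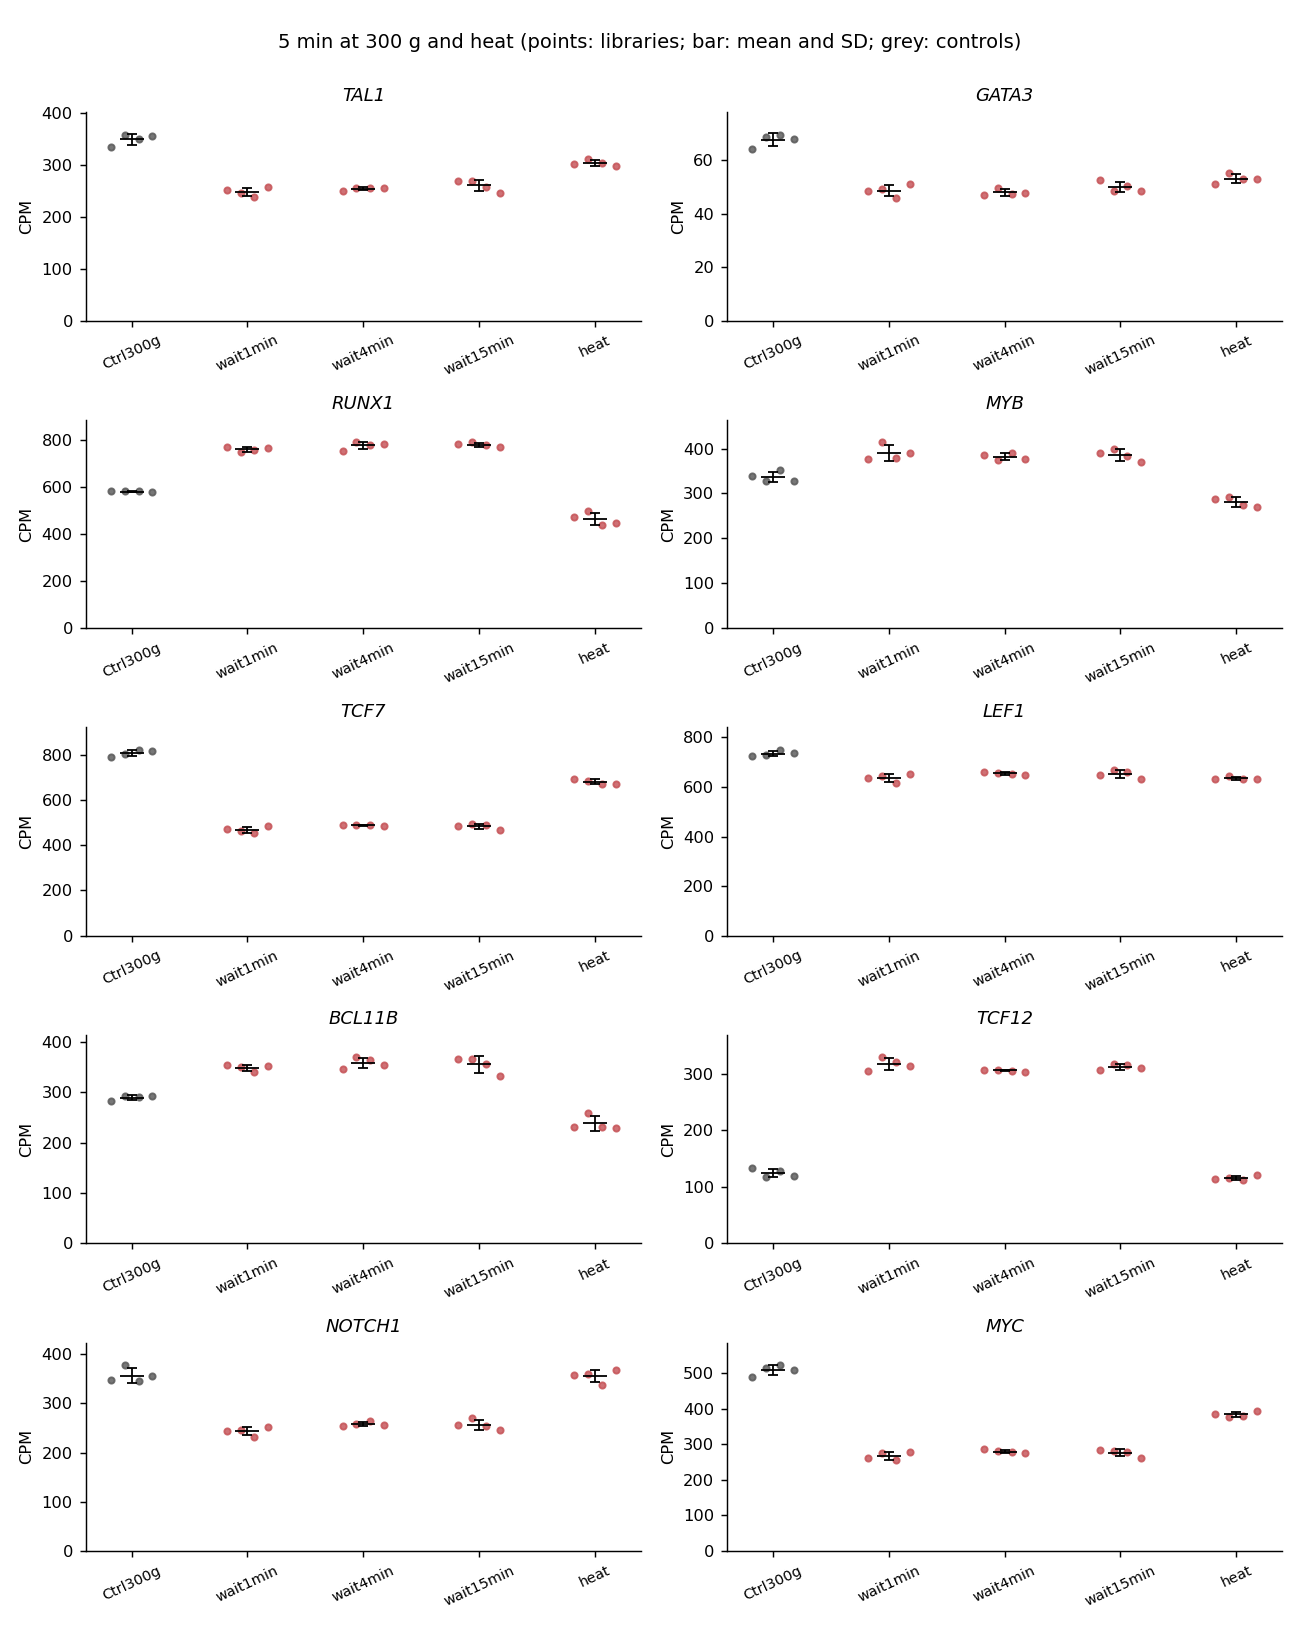
Levels in CPM by library after 5 min at 300 g with 3 waiting times and after heat, 1 panel per factor, with the mean and SD of each group and Ctrl300g in grey. The 3 waiting times lie on the same side of Ctrl300g in every panel, and heat lies below Ctrl300g without overlap for 8 factors, all but TCF12 and NOTCH1.

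Most of the set was lower after heat. The heated cells were also rotated in a water bath while Ctrl300g was lysed directly, which cannot be told apart from 42 °C. At 42 °C 8 of the 10 were called, all lower, where 20.8% of all genes were called, 10.2% lower and 10.6% higher (1770 higher and 1691 lower). With all groups in 1 model 1461 genes were higher and 4027 lower, and with total counts alone 2252 and 1173. MYC had the most negative value, going from 489, 515, 523 and 508 CPM to 385, 376, 380 and 394 CPM, with no overlap (-0.36 ± 0.03, adjusted p = 2.9e-07, edgeR). The libraries of 8 of the 10 genes did not overlap with the control, against 23.2% of all genes. The MYC value was below that of 97.3% of all genes tested. GATA3 came next, at 64.2, 68.8, 69.6 and 67.9 CPM in Ctrl300g and 51, 55.1, 53 and 52.9 CPM after heat (-0.31 ± 0.04, adjusted p = 3.4e-05). RUNX1 read 474, 499, 440 and 446 CPM after heat, all below the control (-0.28 ± 0.04, adjusted p = 4.4e-05). BCL11B (-0.24), MYB (-0.22), TCF7 (-0.20), LEF1 (-0.16) and TAL1 (-0.16) were lower as well, each without overlap. TCF12 (-0.07 ± 0.04, adjusted p = 0.26) and NOTCH1 (0.04 ± 0.04, adjusted p = 0.43) were not called, although TCF12 was called lower (-0.14, adjusted p = 0.0049, edgeR) with all groups in 1 model, and NOTCH1 read 357, 361, 338 and 368 CPM beside 347, 379, 346 and 355. The same 8 genes were called lower with the GC correction, from -0.37 for MYC to -0.16 for TAL1, and 8 were called when any 1 library was left out. The log2 fold changes after heat had a Spearman rho of 0.163 with GC content.

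The same 5 min in a centrifuge gave different changes at 300 g and at 9 g. The difference between wait1min against Ctrl300g and hypg5 against Ctrl was tested as an interaction, and 9 of the 10 genes passed, against 72.6% of 18002 genes. TCF12 differed by 1.78 ± 0.16 on the log2 scale (1.46 at 300 g, -0.32 at 9 g, adjusted p = 1.4e-09, edgeR) and MYC by -0.97 ± 0.07 (-0.82 and 0.15, adjusted p = 1.5e-10). TCF7 differed by -0.70, NOTCH1 by -0.61, GATA3 by -0.49, TAL1 by -0.47, BCL11B by 0.40, MYB by 0.39 and RUNX1 by 0.38. LEF1 did not pass, with -0.01 ± 0.06 (adjusted p = 0.90). With the GC correction TCF12 (0.89), MYC (-0.36), BCL11B (0.76) and RUNX1 (0.54) still differed in the same direction, NOTCH1 (0.21) and TAL1 (0.10) in the opposite one, and LEF1 by 0.51, when 6408 genes differed upward and 3793 downward of 18002 (6251 and 6826 without the correction). The difference no longer passed for TCF7 (-0.05, adjusted p = 0.37), MYB (0.11, adjusted p = 0.12) and GATA3 (0.11, adjusted p = 0.16, edgeR). The 2 experiments differ in vessel, cell concentration and the time before lysis, which cannot be told apart from acceleration here.

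**Figure D5:**
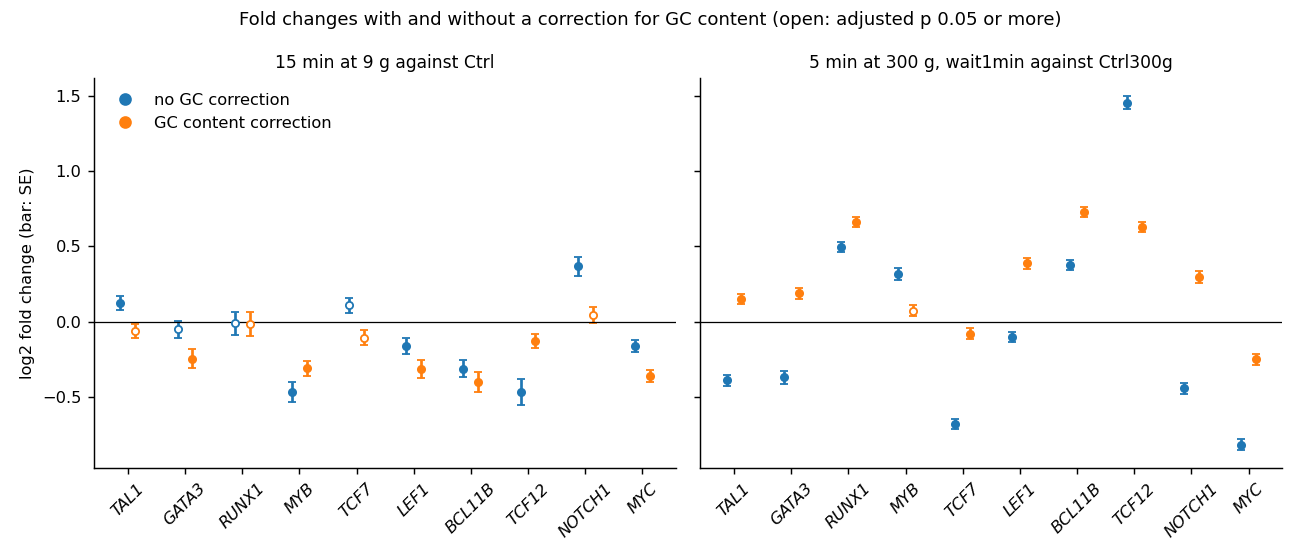
Log2 fold change with its SE for 15 min at 9 g and for wait1min, without and with the GC correction, with open points for an adjusted p of 0.05 or more. At 15 min NOTCH1 moves from 0.37 to 0.04, and at 300 g TAL1, GATA3, LEF1 and NOTCH1 cross 0, while RUNX1, BCL11B and TCF12 stay above 0 and MYC below.

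Partners of the factors were read from lists of related genes, with the count after the GC correction beside the count without it. Over all genes 16.8% were higher and 14.4% lower at hypg75s, 25.4% and 27.9% at hypg15, 41.4% and 40.1% at wait1min and 10.6% and 10.2% after heat, the shares beside which the list counts stand. With the correction 1503 genes were higher and 2686 lower of 16261 at hypg75s, 2062 and 4697 of 15875 at hypg15, 7625 and 4730 of 17155 at wait1min, and 1972 and 2132 of 16655 after heat, beside which the corrected list counts stand. Of 10 partners of the TAL1 complex 9 were tested, and at hypg75s 4 were higher and 3 lower (1 and 3 with the correction), while after heat 0 were higher and 4 lower (0 and 5). CBFB, the subunit that stabilizes RUNX1 on DNA, was lower at hypg3 (-0.62, adjusted p = 7.9e-05, edgeR) and hypg15 (-0.67) and after heat (-0.37), and with the correction at -0.35, -0.31 and -0.34, all called. The CBFB call at hypg20s (-0.31, and -0.16 with the correction) was lost with total counts alone, as was that of ETS1 (-0.23 and -0.14). At hypg75s CBFB (-0.36) and ETS1 (-0.24) were lower with each of the 3 scalings. At wait1min CBFB stood at 0.84, and at -0.04, not called, with the correction. ETS1, an ETS factor of T cells, was lower at hypg3 (-0.50) and hypg15 (-0.55) and after heat (-0.43), and these calls held with the correction (-0.30, -0.31 and -0.42). FLI1, its relative, was lower at 7 of 8 times at 9 g, from -0.20 to -0.44, and at the same 7 times with the correction. With total counts alone the FLI1 calls at hypg5 (adjusted p = 0.095) and hypg7 (0.067) were lost. At the 3 waits FLI1 was not called (-0.03 to 0.03), but higher with total counts alone (0.23 to 0.28) and lower with the correction (-0.48 to -0.42). CREBBP, an acetyltransferase coactivator, was higher at 7 of 8 times at 9 g, all but hypg15, and with the correction at hypg7 (0.22), hypg9 (0.17) and hypg60 (0.36). With total counts alone the CREBBP calls at hypg20s (adjusted p = 0.070) and hypg5 (0.059) were lost. Of 10 oncogenes that define other T-ALL subtypes, 1 was tested, LYL1, which was named after its values were seen. It was called higher at hypg15 (0.69) and after heat (0.92) and lower at wait1min (-0.92), with only the heat call left after the correction, at a mean of 0.488 CPM.

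In the NOTCH pathway 16 of 16 genes were tested. At hypg15 6 were higher and 4 lower (1 and 3 with the correction), and at wait1min 3 were higher and 12 lower (4 and 5). From hypg20s to hypg9 3 were higher at each time. Lower were 3 at hypg20s, 1 at hypg3, 2 at hypg9 and 0 at hypg75s, hypg5 and hypg7. At hypg60 5 were higher and 1 lower. With the correction the counts were 3 and 3 at hypg20s, 4 and 3 at hypg75s and 2 and 5 at hypg3. They were 3 and 2 at hypg5 and hypg7, 3 and 4 at hypg9 and 5 and 5 at hypg60. The calls over all genes at these times are given above. The genes named below were those called most often. The median of the list at wait1min was -0.53 beside 0.01 over all genes. The receptor NOTCH3 was higher at all 8 times at 9 g (0.24 to 0.46), and with the correction at 7, from 0.12 at hypg20s to 0.33 at hypg60. The receptor NOTCH2 was higher at 7 times (0.20 to 0.53), all but hypg20s, and at the same 7 with the correction (0.17 to 0.46). At wait1min NOTCH3 stood at -0.70 and NOTCH2 at -0.28, and at 0.05 and 0.06, not called, with the correction. At wait4min and wait15min both were lower without the correction (NOTCH3 -0.59 and -0.60, NOTCH2 -0.24 and -0.22) and higher with it (NOTCH3 0.10 at each, NOTCH2 0.09 and 0.11). NOTCH2 was not called at any wait with total counts alone. MAML1, the coactivator that NOTCH recruits, was higher at 7 times at 9 g (0.21 to 0.49), all but hypg15, and of these the call at hypg3 was lost with the correction. At the 3 waits MAML1 was lower (-0.29 to -0.23) without the correction, higher with it (0.34 to 0.37), and not called with total counts alone. FBXW7, the ligase that marks NOTCH1 and MYC for degradation, was lower at hypg9 (-0.15) and hypg15 (-0.16) and after heat (-0.26), and with the correction at hypg9 (-0.14) and after heat (-0.25). With total counts alone the call at hypg9 was lost (adjusted p = 0.18). It was higher at wait1min with either scaling (0.66 and 0.70).

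In the MYC network 10 of 10 genes were tested, and at wait1min 3 were higher and 7 lower (5 and 3 with the correction). MAX, the obligate partner of MYC, was called lower in 10 of 12 comparisons, all but hypg20s and hypg15 (-0.08 at each). It stood at -0.13 at hypg75s and -0.17 at hypg3, where MYC was higher. With the correction MAX was lower at all 8 times at 9 g, from -0.13 at hypg7 to -0.27 at hypg3, and its lower values at the waits (-0.38, -0.34 and -0.39) became 0.07, 0.08 and 0.04, called higher at wait4min. With total counts alone its calls at hypg60 (adjusted p = 0.072) and after heat (0.051) were lost, and hypg20s (-0.09) and hypg15 (-0.11) were called. MXI1, which competes with MYC for MAX, was lower at hypg3 (-0.58), hypg7 (-0.34) and hypg15 (-0.67), and these calls held with the correction (-0.43, -0.33 and -0.50), while that at hypg75s (-0.23) was lost (-0.16). MXD4, another such competitor, was higher at hypg20s, hypg75s and hypg3 (0.20 at each), of which the call at hypg75s (0.08) was left with the correction. At wait1min MXD4 was lower with either scaling (-0.88 and -0.21). MYCN, the neural relative of MYC, was lower at hypg60 (-0.41) and after heat (-0.47), and with the correction as well (-0.51 and -0.49). Its higher call at hypg75s (0.26) was lost with the correction, which called it lower at hypg9 (-0.18) and hypg15 (-0.35).

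Of 10 partners of TCF7 and LEF1 9 were tested, and at hypg15, the time with most calls at 9 g, 2 were higher and 3 lower (2 and 2 with the correction). CTNNB1, which encodes beta-catenin, was lower at hypg75s (-0.10), hypg3 (-0.14) and hypg60 (-0.23). With the correction the call at hypg60 held (-0.17), those at hypg75s (-0.01) and hypg3 (0.02) were lost, and CTNNB1 was called higher at hypg15 (0.16). It was lower at the 3 waits (-0.20 to -0.26, and -0.52 to -0.56 with the correction), and with total counts alone at 0.01 to 0.04, not called. GSK3B, the kinase that marks beta-catenin for degradation, was higher at wait1min with either scaling (1.13 and 0.55) and lower after heat (-0.21 and -0.19), while its call at hypg15 (-0.27) was lost with the correction. The corepressors TLE1 (0.20) and TLE3 (0.23) were higher at hypg15, and not called with the correction (-0.05 and -0.01). TLE1 was lower at wait4min (-0.43) and wait15min (-0.45), and higher with the correction (0.21 and 0.20). Of 15 paralogs of the 10 genes 13 were tested, and at hypg75s 6 were higher and 0 lower (2 and 1). The paralog list shares genes with the other lists, and NOTCH2 and NOTCH3, described above, are among the 6. Of the paralogs RUNX3, the relative of RUNX1 in cytotoxic T cells, was higher at 5 times at 9 g, from 0.15 to 0.26, and with the correction at hypg5 alone (0.14).

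Of 15 other T-lineage transcription factors 15 were tested, with 0 higher and 5 lower at hypg15 (0 and 8 with the correction) and 1 higher and 4 lower after heat (1 and 7). SATB1, a chromatin organizer of thymocytes, was lower at hypg20s (-0.19), hypg75s (-0.21), hypg3 (-0.28) and hypg15 (-0.27) and after heat (-0.21). With the correction the calls at hypg3 (-0.09) and hypg15 (-0.04) were lost, the other 3 held (-0.10, -0.10 and -0.20), and SATB1 was called lower at hypg5, hypg7, hypg9 and hypg60 (-0.16 to -0.08). With total counts alone the call at hypg20s was lost (adjusted p = 0.056). At the 3 waits SATB1 was higher with either scaling (0.59 to 0.60, and 0.11 to 0.14). GFI1, a repressor in lymphoid progenitors, was higher at 5 times at 9 g (0.12 to 0.20), and at none of them with the correction, which called it lower at hypg15 (-0.23). At the 3 waits GFI1 was lower (-0.21 to -0.19) without the correction, higher with it (0.40 to 0.43), and not called with total counts alone. FOXP1, a forkhead factor, was higher at wait1min with either scaling (1.25 and 0.33), and its lower calls at hypg3 (-0.41) and hypg15 (-0.48) were lost with the correction (-0.13 and -0.11). The lower call of FOXP1 at hypg20s (-0.38) held with it (-0.22), and the correction called FOXP1 higher at hypg9 (0.15) and lower after heat (-0.16). Of 6 genes reported as TAL1 targets in T-ALL, 5 were lower at hypg15 (4 with the correction) and 3 after heat (3). ARID5B was lower at hypg15 (-0.56, and -0.41 with the correction) and after heat (-0.24 and -0.23). It was higher at hypg7 (0.25 and 0.26), at hypg9 (0.20 and 0.22) and at the 3 waits (0.64 to 0.67, and 0.45 to 0.49), and these 7 calls held with total counts alone. CDK6, a cell cycle kinase, stood at 2.34 at wait1min and at 1.27 with the correction, both called, and its lower call at hypg15 (-0.74) was lost with the correction.

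Over the 15 group means of log2 CPM, centred within each experiment, some of the 10 ran together and some opposite. TAL1 correlated with TCF7 at a Pearson r of 0.928 and with MYC at 0.891, and TCF12 was opposite to TCF7 (-0.921) and TAL1 (-0.904). MYB and BCL11B ran together (0.884). These points share libraries and the GC relation above. Among 8922 genes of at least 10 CPM the pattern most like TCF12 was that of DOCK10 (r = 0.997), the pattern most like MYC that of TRIM32 (0.981), and the pattern most like NOTCH1 that of FASN (0.989). TAL1 was nearest to IRF1 (0.985), GATA3 to SIK2 (0.950), RUNX1 to AGO2 (0.988), MYB to LRRC8D (0.975), TCF7 to EIF4G1 (0.994), LEF1 to CD2 (0.948) and BCL11B to CHSY1 (0.986).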

How the data were processed

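Jurkat T cells were sequenced as strand-specific libraries after ribosomal RNA depletion. The authors deposited 1 table of raw read-pair counts per gene, made with Trim Galore 0.6.5, STAR 2.7.3a and featureCounts (2.0.1 in the submitters' processing notes, 2.0.3 in the file header) on hg38 with Ensembl annotation 104. One record that was broken over 3 lines was left out, and symbols were matched for 60462 of 60663 genes. Groups follow the sample titles, and library 75 was left out, so 79 of 80 libraries were used.

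Each comparison was fitted on the libraries of its 2 groups over all genes with edgeR 4.0.16 in R 4.3.3 (TMM factors, filterByExpr with a minimum count of 10, quasi-likelihood F test, Benjamini-Hochberg adjusted p under 0.05), and the same fit on 4 groups gave the interaction. The SE of a log2 fold change was its size divided by the square root of F. CPM levels use TMM factors over the 79 libraries, while fold changes use the scaling of their own fit. The script was tested on simulated data. The GC correction fitted a lowess curve (span 0.3) on GC content for each library. The values fitted were log2 CPM (prior count 2) minus the gene's mean over the libraries compared. The centred curve entered the fit as an offset. GC content was that of the longest GENCODE transcript of each gene, and GENCODE differs in part from Ensembl 104. Other alternatives were RLE factors, total counts only, no filter, DESeq2 1.42.0, 1 model per experiment, library 75 kept in, and leaving out single libraries.

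The 10 genes and the 8 lists of related genes were chosen with earlier results of these data known. From each list up to 4 genes were named, those called in the most of the 12 comparisons with an own control (ties by mean absolute log2 fold change), if they averaged 1 CPM or more. The genes most like each factor in pattern were those with the highest Pearson r over log2(CPM + 0.5) group means. No 2 libraries held identical counts. One gene that this rule names and one marker are not reported here.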

Additional observations from a re-analysis of the deposited data

Results flagged for a closer look

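In groups of 4 to 6 libraries, 10 of 150 sets of values had a library whose gap to the nearest other was above Dixon's critical value, and chance gives about 1 in 20. In hypg60, library 44 was lowest for TCF7 (630 CPM, the others 717 to 744) and highest for TCF12 (224, the others 120.0 to 141). In hypg15, library 77 was highest for RUNX1 (561, the others 432 to 469) and library 80 lowest for MYB (161, the others 202 to 217). In heat, library 66 was highest for LEF1 (645, the others 632 to 633) and BCL11B (259.6, the others 229.7 to 231). In hypg5, library 29 was lowest for BCL11B (150.3, the others 221 to 253). Among the controls, library 52 of Ctrl300g was lowest for RUNX1 (578.6, the others 582.0 to 582.6), library 3 of Ctrl lowest for NOTCH1 (272, the others 282 to 286) and library 7 of Ctrl60 highest for NOTCH1 (287, the others 265 to 272).

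The change after 5 min differed between 300 g and 9 g, by edgeR's interaction test, for 9 genes: TAL1 (-0.47), GATA3 (-0.49), RUNX1 (0.38), MYB (0.39), TCF7 (-0.70), BCL11B (0.40), TCF12 (1.78), NOTCH1 (-0.61) and MYC (-0.97), as log2 differences of 300 g minus 9 g. With the GC correction those of TAL1 (0.10), GATA3 (0.11) and NOTCH1 (0.21) had the opposite sign, and those of GATA3, MYB (0.11) and TCF7 (-0.05) no longer passed, while LEF1 (0.51) did. Vessel and cell concentration differed between the experiments as well.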

How the results depend on the processing

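Counting sign changes only of values called before or after the change, RLE factors, DESeq2 and no filter reversed none of the 180 member values each, total counts only 4 and the GC correction 20. Values called in neither fit changed sign as well, such as NOTCH1 at hypg20s (0.05 to -0.08) with the GC correction. With the GC correction TAL1 turned to -0.0261 at hypg3, -0.0605 at hypg15 and 0.15, 0.16 and 0.20 at wait1min, wait4min and wait15min, GATA3 to 0.19, 0.14 and 0.21, LEF1 to 0.39, 0.41 and 0.40 and NOTCH1 to 0.30, 0.33 and 0.33 at the same waits, and TCF7 to -0.0796 at hypg20s and -0.0791 at hypg3. The difference of 300 g minus 9 g turned to 0.10 (TAL1), 0.11 (GATA3), 0.51 (LEF1) and 0.21 (NOTCH1). Total counts only turned LEF1 to 0.15, 0.20 and 0.20 at the waits and to 0.21 in that difference. The median of all genes stood at up to 0.27 with total counts only and 0.13 with the GC correction at 300 g. The cause was not tested.

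The number of the 10 genes called changed by more than 1.5 times at hypg5 from 1 to 3 (total counts only, GC correction) or 2 (1 model), at hypg7 from 2 to 1 (1 model), at hypg60 from 1 to 3 (total counts only, GC correction), 2 (DESeq2) or 5 (1 model), from hypg75s to hypg9 from 3 to 1 (GC correction), and from hypg9 to hypg60 from 1 to 2 (RLE factors, DESeq2, 1 model) or 0 (no filter). Smaller changes with the GC correction were 7 to 5 at hypg3, 7 to 6 at hypg15, 5 to 4 at hypg75s, 2 to 3 at hypg7, 3 to 4 at hypg9, 10 to 9 at wait1min and wait15min and 9 to 7 in the interaction. With library 75 kept in it was 2 at hypg15 in place of 7, and 0 from hypg3 to hypg15 in place of 1. Leaving out single libraries gave 6 to 7 at hypg15, 9 to 10 at wait15min and 1 to 6 at hypg60 (6 without library 44, 3 without library 9 or 12 of Ctrl60, and 2 without library 10, 45, 47 or 48), while hypg20s stayed at 4, wait1min and wait4min at 10, heat at 8, and the interaction at 9. From hypg3 to hypg15 it stayed at 1 and from wait1min to wait15min at 0. At wait15min the LEF1 call was lost without library 61 (-0.06) or 64 (-0.05). Leaving out libraries at hypg20s and hypg60, and the scaling of the list genes, were chosen after seeing the data. The other groups of 6 were not refitted without single libraries. No paired analysis was possible because each library has a number of its own, so the groups share none.

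The least counted of the 10, GATA3, had at least 909 counts in each library used.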
